A study of Mus musculus with 51 samples.

Results

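Mature luminal cells (ML) of the mammary gland that carried the Y541S substitution in the estrogen receptor gene Esr1 were compared with ML of Esr1 wild-type (WT) mice, both under giredestrant. The comparison rests on 6 bulk RNA libraries of a series of 51, which are the 3 titled as Y541S with the drug in this population and the 3 titled as WT with the drug in this population. No gene of the 52636 in the count tables was left out by choice, and the 17181 that passed a filter on low counts were tested. Every mouse was 6 months old and carried hormone pellets of estradiol and progesterone. The Y541S giredestrant and WT giredestrant animals were dosed by mouth at 30 mg/kg daily for 4 days, while Y541S vehicle and WT vehicle animals received MCT alone on the same schedule. Another genotype, the D542G substitution, was also given giredestrant. Cells were sorted by flow cytometry, and luminal progenitors (LP), basal cells (Basal) and, in mutants with the drug, a population called N were sorted beside ML. Each group had 3 libraries, called biological replicates in the series' design text. The labels do not say how the alleles were made, whether animals carried 1 or 2 copies, or which libraries came from the same animal. The p-values therefore cover the spread between the libraries, whatever its source.

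The estrogen receptor is a nuclear receptor that binds estradiol through its ligand-binding domain and then activates or represses genes. In the mammary gland mature luminal cells are the main receptor-positive epithelium, and they instruct their neighbours through secreted factors, while milk genes are normally switched on by prolactin through Stat5 in alveolar cells during pregnancy and lactation. Giredestrant is an oral antagonist that binds the same domain and promotes degradation of the receptor. The substituted tyrosine lies in the last helix of that domain, and substitutions at the matching position of the human receptor are known from breast cancers that progress on endocrine therapy. The reference sequence around the affected codon is shown because it marks the genotype that was tested. It lies in exon 9 of Esr1 on the plus strand at chr10:5001229-5001264 of GRCm38 (GENCODE M21), and the capitals are 2 neighbouring codons of the 599 in the reading frame, TAT for the tyrosine replaced in Y541S and GAC for the aspartate replaced in D542G.
Esr1 codons of Y541S and D542G: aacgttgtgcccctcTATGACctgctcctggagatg
The tables count reads per gene and do not separate alleles, so the substitution itself was not checked.

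The promoters of 3 casein genes described below are shown because caseins are textbook targets of Stat5, and no result below rests on the matches in them. Each line gives the 140 bases before the start of transcription (RefSeq, GRCm38.p6), 5′ to 3′ on the strand of the gene. Capitals mark a match to the Stat5 motif TTCNNNGAA, in which N is any base and which reads the same on both strands. Csn2 lies at chr5:87699426-87699565 on the minus strand, Csn1s1 at chr5:87666068-87666207 and Csn1s2a at chr5:87774310-87774449, both on the plus strand.
Csn2: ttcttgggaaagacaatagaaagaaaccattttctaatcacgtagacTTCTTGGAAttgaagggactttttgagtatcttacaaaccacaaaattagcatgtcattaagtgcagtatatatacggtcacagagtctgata
Csn1s1: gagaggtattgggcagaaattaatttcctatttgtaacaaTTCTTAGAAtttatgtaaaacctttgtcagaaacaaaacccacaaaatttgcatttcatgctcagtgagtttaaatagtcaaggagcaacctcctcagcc
Csn1s2a: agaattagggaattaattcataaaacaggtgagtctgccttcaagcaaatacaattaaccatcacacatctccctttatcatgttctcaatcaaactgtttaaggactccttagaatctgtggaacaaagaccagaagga
The matches lie 93 bases before the Csn2 start and 100 bases before the Csn1s1 start, and the Csn1s2a window holds none. These windows depend on the RefSeq starts. In GENCODE M21 the Csn1s2a span begins at 87774567 and the Csn2 span, on the minus strand, ends at 87699630. In the full 250 bases before the start the motif occurred in 3 of 7 milk protein genes with a promoter in the RefSeq table (Csn1s1, Csn2 and Glycam1), in 0 of 10 milk fat genes and in 1 of 19 estrogen receptor targets (Rara), against 8.13% of all 27025 genes with a promoter. A match is a description of letters and not a measured binding site.

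Total counts, in M (1e6 counts), were 21.4 M, 59.0 M and 39.3 M in Y541S libraries 1, 2 and 3, and 32.1 M, 29.2 M and 36.4 M in WT libraries 1, 2 and 3, within the 21.4 M to 60.1 M of the whole series. Between 20020 and 21556 genes had a count in these 6 libraries. Counts of the same group differed between libraries by a chi-square of 53.2 to 182 per degree of freedom, far above counting error, so no pair was a duplicate. Library 3 stood nearest to the other genotype within the Y541S group. Of the genes called higher in Y541S, it was the Y541S library nearest to WT in 819 of 1439, and of those called lower in 674 of 1160. Results that rest on single libraries are given with and without them. B2m, which nearly every cell expresses, was listed at 0 in all 51 libraries, as were Csn3, Tspan8, Itgam, Mvd, Ccl2 and Sprr3 among the list members. Other annotated genes overlap the whole span of B2m, Csn3, Tspan8, Mvd and Ccl2 and 99.9% of that of Itgam. The zeros of these genes are therefore not read as a lack of expression. The overlap was 0% for Sprr3, so that reason does not apply to its zeros.

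Levels are in CPM, counts scaled to a common library size, which can be compared between libraries but not between genes of different length. Ratios are log2 of Y541S over WT with their standard error (SE). A gene was called at an adjusted p under 0.05, from edgeR's quasi-likelihood test on all 18 ML libraries with Benjamini-Hochberg adjustment over 17181 genes, and every adjusted p below is of this kind.

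The genotypes differed widely under the drug. Of 17181 genes, 2599 were called (15.1%), 1439 of them higher in Y541S (8.38%) and 1160 lower (6.75%). List counts below are to be read against these shares, since 1 call in a list of 10 or 12 genes is near them. The ratio was at least 2-fold for 661 of the higher and 457 of the lower genes, with median log2 ratios of 0.93 and −0.84 among the called genes, and −0.02 over all genes. All 3 Y541S libraries lay above all 3 WT libraries in 2776 genes (16.2%), of which 1317 were called, and below them in 2664 genes (15.5%), of which 1097 were called. The number of calls fell to 912 without Y541S library 1, to 1236 without WT library 2, to 1493 without WT library 1 and to 1593 without Y541S library 2, and 732 genes (456 higher, 276 lower) were called whichever of the 6 libraries was left out. With no scaling beyond the library totals, 1190 genes were called higher and 1371 lower, and 605 were called when these 6 libraries were fitted alone. In bulk RNA a change per cell and a change in the mix of cells cannot be told apart. Summed markers of mature luminal cells were lower in Y541S, and those of fibroblasts were higher, with values given below.

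**Figure D1:**
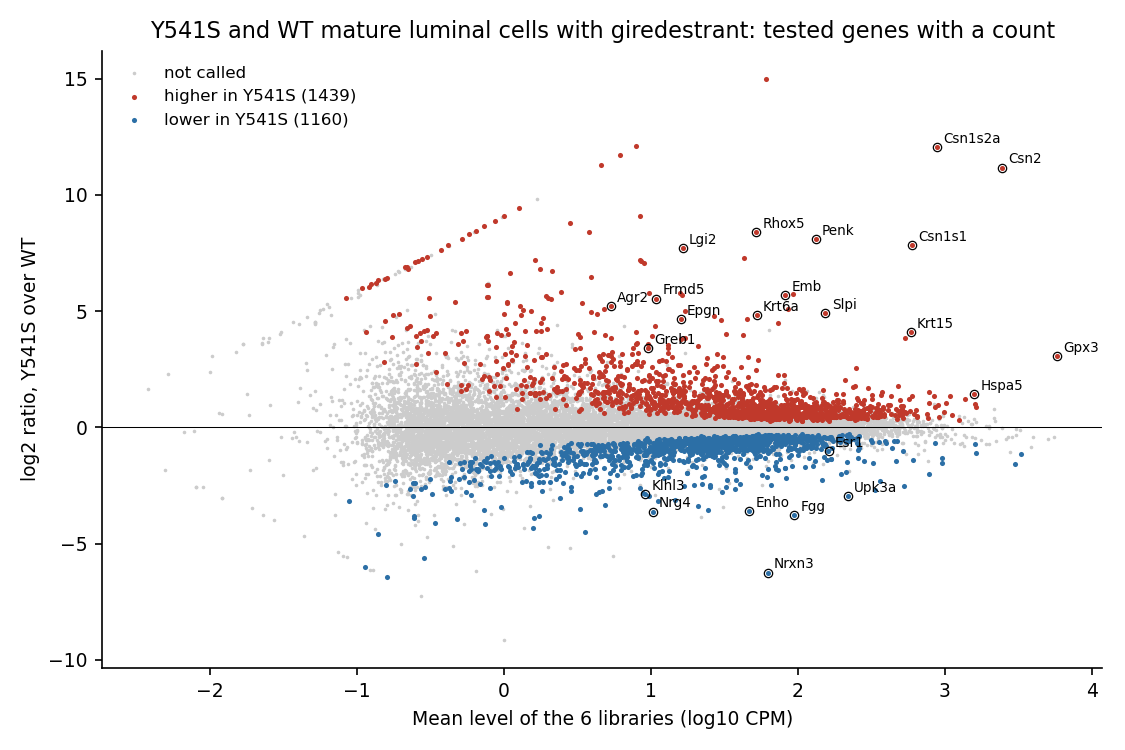
Log2 ratio of Y541S over WT under giredestrant (y axis) against the mean level of the 6 libraries in log10 CPM (x axis), 1 point per tested gene with a count in them. Red points are the 1439 genes called higher in Y541S, blue points the 1160 called lower and gray points the rest, and the labelled points Csn2 and Csn1s2a combine high levels with the highest ratios among labelled genes.

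Esr1 itself, on chromosome 10 (4611593 to 5005614), stood at 87.1, 135 and 104 CPM in Y541S libraries and at 172, 179 and 299 CPM in WT libraries. All Y541S values were below all WT values. The log2 ratio was −1.02 ± 0.34 and did not pass (adjusted p = 0.055). It passed in DESeq2 (adjusted p = 0.0198), with all 51 libraries in the fit (adjusted p = 0.0417), with library totals as the only scaling (adjusted p = 0.0473) and among genes of at least 10 CPM (adjusted p = 0.0342), and in no fit that left out 1 library.

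Receptor targets did not move as a block. Of 21 tested targets, Greb1, Ret and Igfbp4 were higher in Y541S, Cited1 was lower and 17 did not pass, and the median log2 ratio was 0.37 (−0.02 over all genes). Summed over the list, levels overlapped, at 3560 to 3666 CPM in Y541S and 3326 to 4312 CPM in WT. Under vehicle the sums were 4067 to 4888 CPM in Y541S and 6917 to 7524 CPM in WT. Greb1, a coactivator of the receptor whose transcription depends on estrogen (chromosome 12, 16670615 to 16800886), had 35.0, 13.4 and 4.06 CPM in Y541S libraries and 1.09, 1.26 and 2.42 CPM in WT libraries. Every Y541S library was above every WT library, and Y541S library 3 was the closest to them. The ratio was 3.42 ± 0.57 (adjusted p = 0.00274). These levels stayed under those of vehicle animals, in which Greb1 had 53.1, 55.3 and 57.3 CPM in Y541S and 212, 162 and 163 CPM in WT. Ret, a receptor tyrosine kinase, was low throughout at 5.94, 4.92 and 1.80 CPM in Y541S and 0.354, 1.23 and 1.10 CPM in WT (2.22 ± 0.48, adjusted p = 0.00871). Igfbp4, a secreted binder of insulin-like growth factors, had 50.2, 41.3 and 22.6 CPM in Y541S and 15.8, 16.7 and 12.6 CPM in WT (1.33 ± 0.37, adjusted p = 0.0268). Its call ended without Y541S library 1, Y541S library 2, WT library 1, WT library 2 or WT library 3 (adjusted p = 0.118, 0.0676, 0.0661, 0.0651 and 0.0739). The Greb1 and Ret calls held in all 6 fits that left out 1 library, with adjusted p up to 0.0428. Pgr, the progesterone receptor and a standard receptor target, had 98.3, 90.6 and 46.7 CPM in Y541S and 30.9, 22.8 and 78.9 CPM in WT, which overlapped and did not pass (adjusted p = 0.128). It was called higher without Y541S library 3 (adjusted p = 0.0481) or WT library 3 (adjusted p = 0.0048). Areg, the luminal growth factor amphiregulin, had 273, 378 and 455 CPM in Y541S and 540.6, 264 and 860.4 CPM in WT (adjusted p = 0.338). The number of targets called higher was 5 without Y541S library 3 or WT library 3 and 2 without Y541S library 2, WT library 1 or WT library 2.

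Milk protein genes had the highest median ratio of the gene lists. Of 9 tested, 6 were higher in Y541S and none was lower, with a median log2 ratio of 4.18. The count was 3 without Y541S library 1 or WT library 3, and the median was 2.43 without Y541S library 1. Csn2, which encodes beta-casein (chromosome 5, 87692624 to 87699630), had 11335, 3343 and 27.8 CPM in Y541S libraries 1, 2 and 3, against 4.90, 0.42 and 1.0 CPM in WT libraries. Y541S library 3 was far below libraries 1 and 2, yet above every WT library. Its log2 ratio was 11.18 ± 2.49 (adjusted p = 0.00968). Csn1s2a, an alpha-S2 casein, had 4741, 586 and 3.33 CPM in Y541S and 0.708, 0.42 and 0.122 CPM in WT (12.08 ± 2.53, adjusted p = 0.00757). Csn1s1, the alpha-S1 casein, had 2195, 1317 and 43.1 CPM in Y541S and 11.4, 1.29 and 2.64 CPM in WT (7.86 ± 1.73, adjusted p = 0.0093). These 3 casein calls held whichever library was left out, with adjusted p up to 0.0451. With Y541S libraries 1 and 2 both left out, so that 1 Y541S library remained and the other groups supplied the spread, none of them passed, and Csn2 had an adjusted p of 0.367. Lalba, the alpha-lactalbumin of lactose synthesis, had 31.1, 9.91 and 3.40 CPM in Y541S and 1.93, 0.959 and 0.757 CPM in WT (3.59 ± 1.01, adjusted p = 0.028), a call that ended without Y541S library 1, WT library 1, WT library 2 or WT library 3 (adjusted p = 0.143, 0.055, 0.0952 and 0.0796). Wap, whey acidic protein, had 7.73, 1.99 and 0.434 CPM in Y541S and 0.409, 0 and 0.147 CPM in WT (4.14 ± 1.17, adjusted p = 0.0287). The Wap call ended without Y541S library 1, WT library 2 or WT library 3 (adjusted p = 0.18, 0.0841 and 0.0761), and the ratio was 2.66 without Y541S library 1. Csn3 was among the genes listed at 0 and was not tested. Trf, the remaining call, is overlapped by other genes over 99.5% of its span, so its level is uncertain. The casein genes resemble one another, and nothing in the labels or file headers states how reads that fit several genes were counted.

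The spread between the Y541S libraries was seen in other populations too. Csn2 followed the same library numbers in the other Y541S giredestrant populations, with 10185, 6789 and 54.1 CPM in LP, 1336, 979.9 and 10.8 CPM in Basal and 2950.4, 758 and 8.16 CPM in N. In each of them library 3 was the lowest. WT giredestrant LP held 14.3, 7.32 and 11.2 CPM. In vehicle ML Csn2 was at 15.2, 213 and 9.93 CPM in Y541S and 0.219, 0 and 0.369 CPM in WT. Whether libraries of 1 number came from 1 animal is not given in the labels.

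Of 15 tested milk fat genes 8 were higher in Y541S, none was lower and 7 did not pass, with a median log2 ratio of 1.22. The summed level of the list overlapped between genotypes, at 5721, 5599 and 5035 CPM in Y541S and 6934, 8027 and 3887 CPM in WT. Lpl, the lipase that frees fatty acids from blood lipoproteins, had 146, 69.1 and 24.9 CPM in Y541S and 6.10, 4.53 and 4.76 CPM in WT. The groups did not overlap, and the ratio was 3.96 ± 0.65 (adjusted p = 0.00251). Olah, the thioesterase that releases medium-chain fatty acids in the lactating gland, had 21.5, 15.2 and 3.90 CPM in Y541S and 1.58, 2.64 and 1.90 CPM in WT (2.72 ± 0.58, adjusted p = 0.0083). Both calls held in all 6 fits that left out 1 library (adjusted p up to 0.0443). Fasn, fatty acid synthase, had 857, 555 and 250.2 CPM in Y541S and 205, 128 and 249 CPM in WT, so that Y541S library 3 was level with WT library 3. Its ratio was 1.5 ± 0.38 (adjusted p = 0.0175), and the call ended without Y541S library 1 or WT library 2 (adjusted p = 0.105 and 0.0752). Plin2, which coats lipid droplets, had 855, 499.8 and 249.7 CPM in Y541S and 279, 188 and 149.6 CPM in WT (1.37 ± 0.38, adjusted p = 0.0255). Its call ended without Y541S library 1, WT library 2 or WT library 3 (adjusted p = 0.156, 0.0848 and 0.0782), and the ratio was 0.84 without Y541S library 1. The number called higher in the list was 3 without Y541S library 1, 4 without WT library 2 and 5 without WT library 3.

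**Figure D2:**
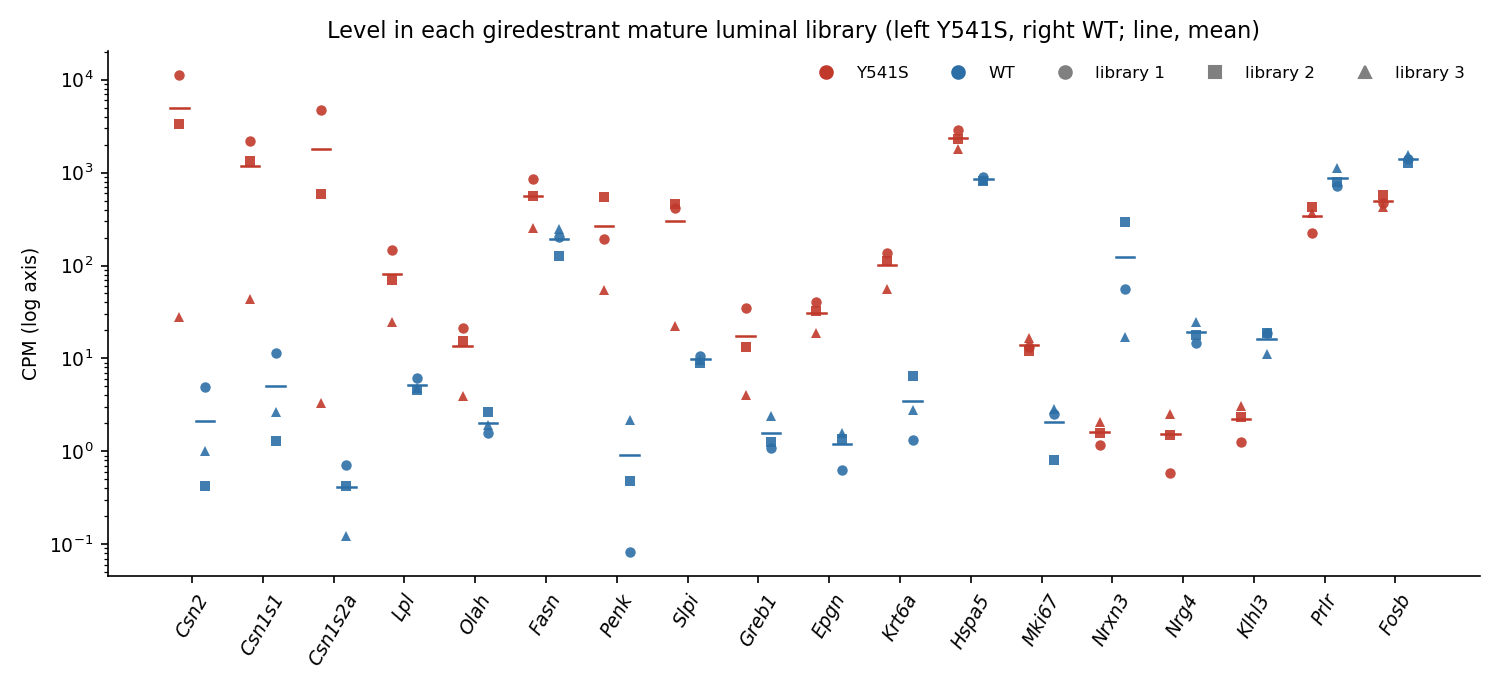
CPM (y axis, log scale) of 18 named genes in each giredestrant ML library, with Y541S in red on the left and WT in blue on the right of each gene. Marker shapes are libraries 1, 2 and 3 and lines are means. Csn2 and Csn1s2a spread over more than 2 powers of 10 between Y541S libraries, with library 3 lowest, while Hspa5, Mki67, Nrxn3 and Fosb show compact Y541S groups.

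The prolactin pathway moved in both directions. Of 9 tested members, 2 were higher (Jak2 and Socs2), 2 were lower (Prlr and Socs3) and 5 did not pass. None was called higher without Y541S library 1, WT library 1 or WT library 2, and 4 were without Y541S library 3 or WT library 3. Prlr, the prolactin receptor, had 224, 425 and 369 CPM in Y541S and 718, 788 and 1112 CPM in WT (−1.39 ± 0.37, adjusted p = 0.0227). All Y541S libraries were below all WT libraries, and the call ended without Y541S library 1 or WT library 3 (adjusted p = 0.105 and 0.0691). Socs3, a feedback inhibitor of cytokine signalling, had 263, 278 and 216 CPM in Y541S and 463, 489 and 1091 CPM in WT (−1.45 ± 0.29, adjusted p = 0.00633). Its call held in all 6 fits that left out 1 library, and without WT library 3 the ratio was −0.92. Jak2, the kinase bound to the receptor, had 227, 191 and 124 CPM in Y541S and 77.1, 70.9 and 103 CPM in WT (1.10 ± 0.32, adjusted p = 0.0317), a call that ended without Y541S library 1, Y541S library 2, WT library 1 or WT library 2 (adjusted p = 0.135, 0.0756, 0.0936 and 0.113). Socs2, an inhibitor induced by Stat5, had 113, 90.2 and 40.5 CPM in Y541S and 29.0, 23.6 and 40.3 CPM in WT (1.37 ± 0.33, adjusted p = 0.0145), a call that ended without Y541S library 1, WT library 1 or WT library 2 (adjusted p = 0.0789, 0.0515 and 0.0655). Stat5a had 473, 219 and 151 CPM in Y541S and 109.9, 79.7 and 208 CPM in WT, which overlapped and did not pass (adjusted p = 0.0554), although it was called higher without Y541S library 3 (adjusted p = 0.0144) or WT library 3 (adjusted p = 0.0138). Elf5, a factor of alveolar fate, had 155, 117 and 89.3 CPM in Y541S and 164, 148 and 76.0 CPM in WT (adjusted p = 0.817).

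Targets of progesterone and glucocorticoid receptors were mostly not called, with 2 of 10 higher and 1 lower, and none higher without Y541S library 1, Y541S library 2, WT library 1 or WT library 2. Fkbp5, a co-chaperone induced by both receptors, had 739, 290.1 and 104 CPM in Y541S and 92.4, 49.7 and 187 CPM in WT (1.77 ± 0.55, adjusted p = 0.0404). The groups overlapped, the call ended without Y541S library 1, Y541S library 2, WT library 1 or WT library 2 (adjusted p = 0.312, 0.0583, 0.119 and 0.141), and the ratio was 0.81 without Y541S library 1. Hsd11b2, which inactivates glucocorticoids, had 80.9, 33.3 and 1.78 CPM in Y541S and 3.11, 0.929 and 5.93 CPM in WT (3.51 ± 1.07, adjusted p = 0.0383), a call that ended without Y541S library 1, Y541S library 2, WT library 1 or WT library 2 (adjusted p = 0.181, 0.0654, 0.106 and 0.129). Both rises rested on Y541S libraries 1 and 2. Per1, a clock gene, fell to 49.5, 53.0 and 27.1 CPM in Y541S, against 98.2, 76.7 and 68.5 CPM in WT (−0.92 ± 0.22, adjusted p = 0.0137), a call that ended without WT library 1 (adjusted p = 0.0569). Tnfsf11 (RANKL), the paracrine signal of progesterone, had 253, 427 and 82.0 CPM in Y541S and 82.0, 33.6 and 535 CPM in WT and did not pass (adjusted p = 0.898).

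Of 25 proliferation genes 12 were called higher in Y541S, none lower and 13 did not pass, with a median log2 ratio of 1.14. Mki67, the marker of cycling cells on chromosome 7, had 13.2, 12 and 16.7 CPM in Y541S and 2.51, 0.81 and 2.86 CPM in WT (2.73 ± 0.48, adjusted p = 0.00333). Cenpf, a kinetochore protein of G2 and mitosis, had 21.5, 21.8 and 28.1 CPM in Y541S and 5.04, 2.01 and 5.91 CPM in WT (2.43 ± 0.40, adjusted p = 0.00261). Cenpe, a mitotic motor, had 12.1, 12.6 and 20.0 CPM in Y541S and 2.13, 0.51 and 4.40 CPM in WT (2.63 ± 0.57, adjusted p = 0.00835). For these genes the groups did not overlap, Y541S library 3 was the highest and WT library 2 the lowest, and the calls held in all 6 fits that left out 1 library (adjusted p up to 0.0342). Top2a, a topoisomerase of dividing cells, had 84.6, 83.1 and 139.9 CPM in Y541S and 27.7, 13 and 54.0 CPM in WT (1.67 ± 0.43, adjusted p = 0.0192), a call that ended without Y541S library 3, WT library 1 or WT library 2 (adjusted p = 0.052, 0.067 and 0.0636). The count of proliferation genes called higher turned on single libraries: it was 22 without WT library 3, 13 without Y541S library 2, 6 without Y541S library 1, 5 without Y541S library 3 and 4 without WT library 1 or 2.

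Among G1 cyclins and inhibitors of cyclin-dependent kinases, 3 of 12 tested genes were higher, all inhibitors, and 1 cyclin was lower. Cdkn2b (p15) had 10.3, 10.3 and 7.58 CPM in Y541S and 0.817, 1.89 and 1.27 CPM in WT (2.81 ± 0.55, adjusted p = 0.00565). Cdkn1a (p21), a target of p53, had 344, 309 and 280.1 CPM in Y541S and 181, 178 and 168 CPM in WT (0.81 ± 0.17, adjusted p = 0.00756). Ccnd3, a D-type cyclin, fell to 79.5, 77.1 and 64.5 CPM in Y541S, against 118, 137 and 99.7 CPM in WT (−0.70 ± 0.14, adjusted p = 0.00694). These 3 showed no overlap and held in all 6 fits that left out 1 library (adjusted p up to 0.0375). Cdkn2a, the locus of p16 and p19, had 2.68, 2.15 and 1.76 CPM in Y541S and 0.191, 0.12 and 0.415 CPM in WT (3.12 ± 0.76, adjusted p = 0.0143), a call that ended without Y541S library 1, WT library 1 or WT library 2 (adjusted p = 0.0505, 0.0545 and 0.0615).

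Of 15 genes of the unfolded protein response 6 were called, all higher in Y541S, and 9 did not pass. Hspa5 (BiP), the main chaperone of that compartment (chromosome 2, 34771970 to 34777547), had 2861, 2328 and 1805 CPM in Y541S and 889.6, 809 and 839.7 CPM in WT. The WT libraries lay within a narrow range and all Y541S libraries were above them, with a ratio of 1.45 ± 0.18 (adjusted p = 0.000846). Hsp90b1 (Grp94), a second chaperone there, had 439, 423 and 358 CPM in Y541S and 216, 164 and 248 CPM in WT (0.94 ± 0.18, adjusted p = 0.00526). Both calls held in all 6 fits that left out 1 library (adjusted p up to 0.0265). Calr, calreticulin, had 1011, 979 and 746 CPM in Y541S and 608, 512 and 686 CPM in WT (0.58 ± 0.15, adjusted p = 0.0168), a call that ended without Y541S library 1, Y541S library 2 or WT library 2 (adjusted p = 0.0771, 0.0545 and 0.0737). The number called was 9 without Y541S library 3, 2 without Y541S library 1, and 3 without Y541S library 2, WT library 1 or WT library 2. Summed over the list, levels were 4269.5 to 6583.6 CPM in Y541S and 2705.5 to 3118.2 CPM in WT. Under vehicle these sums were 5690.5 to 7068.7 CPM in Y541S and 6974 to 7341.6 CPM in WT. The Y541S sums under giredestrant were thus not above those of vehicle animals, and the WT sums were below them.

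Genes of cholesterol synthesis differed by smaller amounts. Of 18 tested, 5 were higher, 1 was lower and 12 did not pass. Hmgcs1, an early enzyme of the pathway, had 55.5, 63.4 and 56.0 CPM in Y541S and 24.5, 27.4 and 30.4 CPM in WT (1.07 ± 0.21, adjusted p = 0.00526), and its call held in all 6 fits that left out 1 library (adjusted p up to 0.0231). Cyp51, the lanosterol demethylase, had 88.5, 93.5 and 103 CPM in Y541S and 46.1, 42.2 and 68.3 CPM in WT (0.84 ± 0.24, adjusted p = 0.0284), a call that ended without Y541S library 1, Y541S library 2, Y541S library 3, WT library 1 or WT library 2 (adjusted p = 0.0669, 0.0607, 0.0588, 0.0954 and 0.114). Fdft1, squalene synthase, moved the other way with 18.6, 25.0 and 29.1 CPM in Y541S and 29.0, 35.0 and 42.1 CPM in WT (−0.56 ± 0.18, adjusted p = 0.0471), and its call ended without Y541S library 1, Y541S library 2, WT library 2 or WT library 3 (adjusted p = 0.197, 0.0942, 0.0986 and 0.167). Fewer list members were called higher without WT library 2, when 1 was left, and 2 were left without Y541S library 1, Y541S library 2 or WT library 1.

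**Figure D3:**
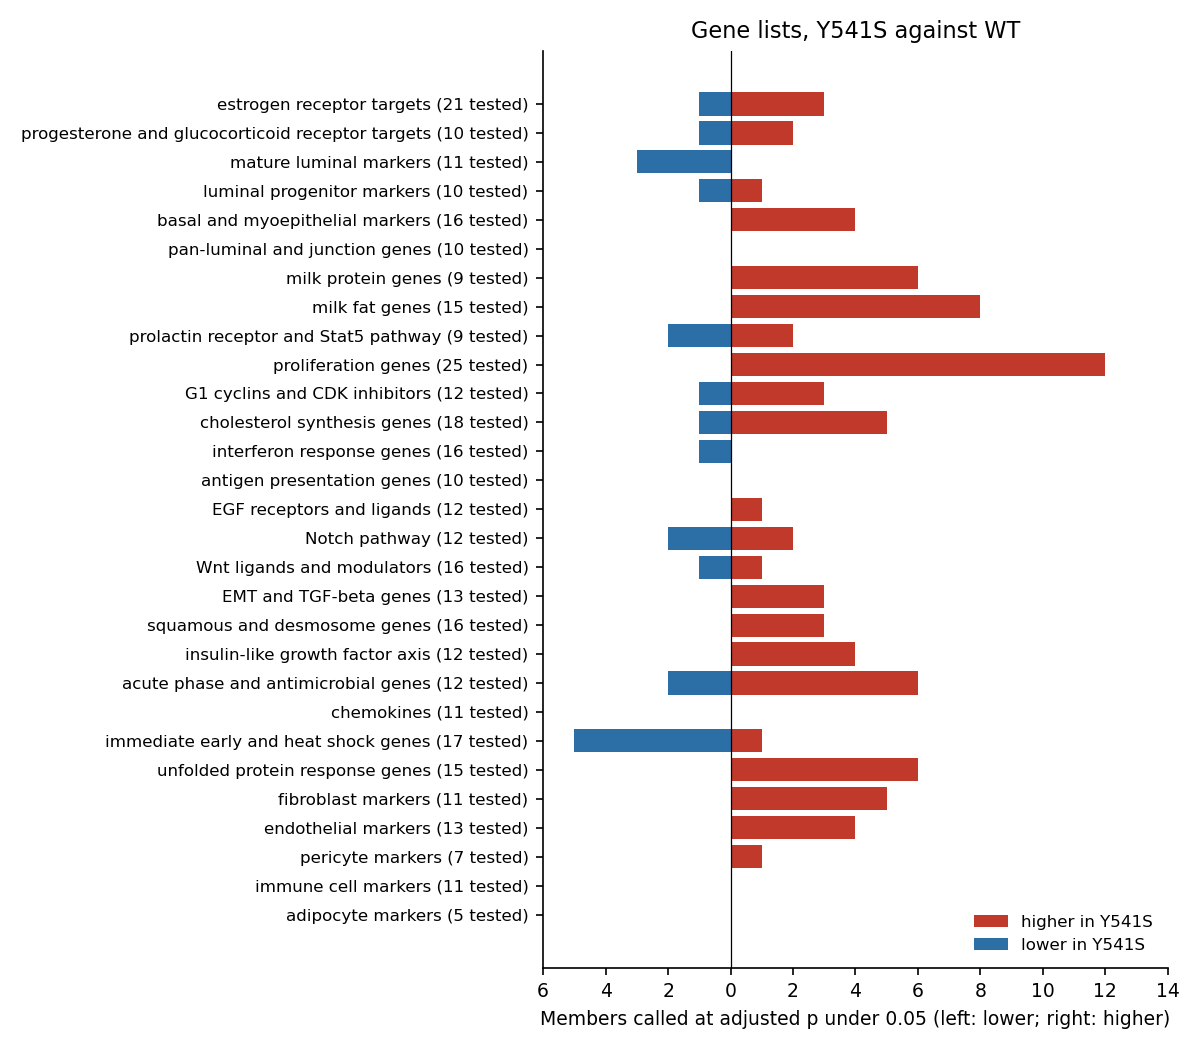
Number of members of each gene list called in Y541S against WT ML under giredestrant (x axis, right in red for higher and left in blue for lower), with the number tested beside each list name. Proliferation (12 of 25), milk fat (8 of 15), milk protein (6 of 9), unfolded protein response (6 of 15) and acute phase genes (6 of 12) had the most members called higher, and immediate early and heat shock genes (5 of 17) the most called lower.

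In the list of epidermal growth factor receptors and ligands 1 of 12 genes was called, near the share called higher over all genes (8.38%). Epgn, the epidermal growth factor receptor ligand epigen (chromosome 5, 91027464 to 91035215), had 40.9, 32.6 and 18.8 CPM in Y541S and 0.627, 1.35 and 1.59 CPM in WT. The groups stood far apart, and the ratio was 4.67 ± 0.56 (adjusted p = 0.000756, at most 0.00451 on leaving out any library). Without Y541S libraries 1 and 2 the adjusted p was 0.0241, in a fit with 1 Y541S library left whose spread is taken from the other groups. The other 11 tested genes of the list did not pass. Nrg4, a ligand of Erbb4 outside the list, was called lower and is described below. Erbb2 had 319, 268 and 209 CPM in Y541S and 211, 156 and 306 CPM in WT (adjusted p = 0.543). Erbb3 had 486 ± 76.9 CPM in Y541S and 471 ± 91.9 CPM in WT (SD, n = 3 each, edgeR adjusted p = 0.945). Without Y541S library 3, 1 member of the list was called lower. In the Notch list 2 of 12 genes were higher and 2 lower, against 8.38% higher and 6.75% lower over all genes. None of the list was higher without Y541S library 1, Y541S library 2, WT library 1 or WT library 2. Hes1, a transcriptional target of Notch, fell to 119, 105 and 113 CPM in Y541S, against 178, 223 and 158 CPM in WT (−0.74 ± 0.15, adjusted p = 0.00737, at most 0.0362 on leaving out any library). Jag2, a Notch ligand, had 12, 12.8 and 4.77 CPM in Y541S and 2.37, 1.68 and 4.15 CPM in WT (1.83 ± 0.47, adjusted p = 0.0186), and the call ended without Y541S library 1, Y541S library 2, WT library 1 or WT library 2 (adjusted p = 0.0686, 0.0625, 0.0649 and 0.0771). Among 16 Wnt genes Wnt7b was lower and Lgr4, a receptor for R-spondins, was higher, which is near the share over all genes (8.38% higher, 6.75% lower). Wnt7b had 35.9, 50.7 and 117 CPM in Y541S and 145, 214 and 148 CPM in WT (−1.34 ± 0.34, adjusted p = 0.0172), a call that ended without Y541S library 1, Y541S library 2 or WT library 2 (adjusted p = 0.0738, 0.0692 and 0.0697). Of 12 genes of the insulin-like growth factor axis 4 were higher, all of them binding proteins or the clearance receptor Igf2r, and none was called without Y541S library 1 or WT library 1. Igfbp2 had 9.43, 10.3 and 5.57 CPM in Y541S and 0.409, 2.04 and 0.44 CPM in WT (3.14 ± 0.80, adjusted p = 0.0186), a call that ended without Y541S library 1, WT library 1 or WT library 3 (adjusted p = 0.0552, 0.0701 and 0.0582).

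Among squamous and desmosome genes 3 of 16 were higher, none was lower and 13 did not pass. Krt6a, a keratin of stressed epithelium, had 136, 112 and 56.3 CPM in Y541S and 1.34, 6.45 and 2.78 CPM in WT (4.85 ± 0.76, adjusted p = 0.00204). Krt6b, its close paralog, had 2.64, 2.31 and 1.19 CPM in Y541S and 0, 0.12 and 0.0244 CPM in WT (5.36 ± 0.98, adjusted p = 0.0041). Reads may be split between these 2 genes. Both calls held in all 6 fits that left out 1 library (adjusted p up to 0.0175). Dsg3, a desmosomal cadherin and the remaining call, had 5.63, 2.01 and 1.89 CPM in Y541S and 0.0817, 0.51 and 0.562 CPM in WT (3.01 ± 0.95, adjusted p = 0.0431), and this call ended without Y541S library 1, Y541S library 2, WT library 1, WT library 2 or WT library 3 (adjusted p = 0.167, 0.0597, 0.132, 0.0986 and 0.0675). The 10 tested pan-luminal keratin and junction genes gave 0 calls in edgeR, where 2 had an unadjusted p under 0.05, and DESeq2 called 1 lower. Krt18 had 2312, 3050.0 and 3964 CPM in Y541S and 3196, 3472 and 3380.2 CPM in WT (adjusted p = 0.643). Of them 1 was called lower without Y541S library 3. Of 13 genes of mesenchymal transition 3 were higher, and 1 without Y541S library 1. Tgfbi, an extracellular protein induced by TGF-beta, had 9.34, 10.6 and 9.31 CPM in Y541S and 2.15, 3.21 and 2.30 CPM in WT (1.92 ± 0.40, adjusted p = 0.00756, at most 0.0313 on leaving out any library). Fn1, fibronectin, had 109, 55.2 and 9.63 CPM in Y541S and 1.91, 1.44 and 3.52 CPM in WT (4.64 ± 1.11, adjusted p = 0.0138), a call that ended without Y541S library 1, WT library 1 or WT library 2 (adjusted p = 0.0567, 0.0531 and 0.0599). The Snai, Twist and Zeb factors of the list did not pass. Fibroblasts express both genes, and the summed fibroblast markers were 283, 349 and 283 CPM in Y541S and 63.5, 62.8 and 112 CPM in WT, whose part in these values was not tested.

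Secreted defence proteins went both ways, with 6 of 12 tested genes higher and 2 lower. Slpi, a secreted protease inhibitor, had 411, 463 and 22.2 CPM in Y541S and 10.7, 8.96 and 9.65 CPM in WT (4.93 ± 0.82, adjusted p = 0.00274). Pigr, the receptor that carries immunoglobulin A into milk, had 65.4, 18.9 and 6.41 CPM in Y541S and 2.26, 2.88 and 1.27 CPM in WT (3.82 ± 0.75, adjusted p = 0.00577). Both calls held in all 6 fits that left out 1 library (adjusted p up to 0.0321). Ltf, lactoferrin, was lower with 54.0, 91.1 and 226 CPM in Y541S and 315, 1238 and 247 CPM in WT (−2.29 ± 0.67, adjusted p = 0.033). Its call ended without Y541S library 1, Y541S library 2 or WT library 2 (adjusted p = 0.132, 0.104 and 0.219), and the ratio was −1.21 without WT library 2. Saa1, a serum amyloid protein, was near 0 in both genotypes. It had 46 counts over the 3 Y541S libraries and 0 over the 3 WT libraries, at least 12.5-fold higher when 3 counts are allowed to the WT group. The Saa1 call ended without Y541S library 1, Y541S library 2, WT library 1, WT library 2 or WT library 3 (adjusted p = 0.136, 0.0738, 0.102, 0.109 and 0.0947). Of the list 3 genes were called higher without Y541S library 1, WT library 2 or WT library 3, and none lower without Y541S library 1, Y541S library 2 or WT library 2. Chemokines gave 0 calls among 11 tested genes in edgeR, where 5 had an unadjusted p under 0.05, and DESeq2 called 3 of them higher.

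Of 17 immediate early and heat shock genes 5 were lower in Y541S, 1 was higher and 11 did not pass. The number lower was 1 without Y541S library 1, 2 without Y541S library 2 or WT library 2, 3 without WT library 3 and 8 without Y541S library 3. Fosb, an AP-1 subunit, had 474, 571 and 432 CPM in Y541S and 1404, 1267 and 1562 CPM in WT (−1.54 ± 0.31, adjusted p = 0.00639), and this call held in all 6 fits that left out 1 library (adjusted p up to 0.0314). Fos had 1104, 1400.4 and 2068 CPM in Y541S and 3227, 4167 and 5969.8 CPM in WT (−1.57 ± 0.48, adjusted p = 0.0376), a call that ended without Y541S library 1, Y541S library 2, WT library 2 or WT library 3 (adjusted p = 0.143, 0.103, 0.0739 and 0.107). Atf3, a stress-induced factor, had 849.6, 854 and 1431 CPM in Y541S and 1789, 2589 and 2202 CPM in WT (−1.09 ± 0.29, adjusted p = 0.0236), a call that ended without Y541S library 1, Y541S library 2 or WT library 2 (adjusted p = 0.101, 0.084 and 0.0816). For Fosb, Fos and Atf3 all 3 Y541S libraries lay below all 3 WT libraries. Hsph1, a heat shock protein, was higher with 172, 80.8 and 100.4 CPM in Y541S and 43.1, 37.4 and 53.3 CPM in WT (1.39 ± 0.31, adjusted p = 0.0102), a call that ended without Y541S library 1 (adjusted p = 0.0599). Genes of this kind respond to tissue dissociation, and the part of sample handling in these values was not tested. Interferon genes gave 1 call of 16, near the share called lower over all genes (6.75%), and 3 without Y541S library 3 or 2 without Y541S library 2. The call was Irf9, with 67.8, 64.9 and 80.1 CPM in Y541S and 101, 95.4 and 133 CPM in WT (−0.65 ± 0.14, adjusted p = 0.00786, at most 0.038 on leaving out any library). Antigen presentation genes gave 0 calls of 10 in edgeR, where 2 had an unadjusted p under 0.05, and 0 in DESeq2, with H2-K1 at 1440.0, 1381 and 1353 CPM in Y541S and 1167, 1135 and 1363 CPM in WT (adjusted p = 0.59).

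Among called genes of at least 10 CPM whose groups did not overlap, the 12 largest falls in Y541S were in genes outside the lists. Nrxn3, a synaptic adhesion protein (chromosome 12, 88722876 to 90334935), had 1.16, 1.56 and 2.08 CPM in Y541S and 55.8, 297 and 17.1 CPM in WT (−6.25 ± 0.99, adjusted p = 0.00204). The Y541S libraries were compact, and WT library 2 was the highest. Nrg4, a neuregulin ligand of Erbb4, had 0.581, 1.5 and 2.53 CPM in Y541S and 14.6, 17.7 and 24.9 CPM in WT (−3.63 ± 0.68, adjusted p = 0.0047). Enho, the precursor of the peptide adropin, had 2.99, 3.72 and 14.7 CPM in Y541S and 70.8, 83.0 and 107 CPM in WT (−3.62 ± 0.69, adjusted p = 0.00515). Klhl3, an adaptor of a ubiquitin ligase, had 1.25, 2.35 and 3.08 CPM in Y541S and 18.7, 18.6 and 11.1 CPM in WT (−2.86 ± 0.43, adjusted p = 0.00171). Other genes overlap 44.1% of the span of Enho, so its level is less certain. The Nrxn3, Nrg4, Enho and Klhl3 calls held in all 6 fits that left out 1 library (adjusted p up to 0.0294). Fgg, the gamma chain of fibrinogen, had 4.96, 7.22 and 26.4 CPM in Y541S and 239, 169.7 and 119.9 CPM in WT (−3.79 ± 1.14, adjusted p = 0.0363), a call that ended without Y541S library 1, Y541S library 2, WT library 1 or WT library 2 (adjusted p = 0.136, 0.115, 0.0819 and 0.0709). Upk3a, a uroplakin, had 14.8, 21.3 and 117 CPM in Y541S and 304, 303 and 548 CPM in WT (−2.94 ± 0.94, adjusted p = 0.0458). Its call ended without Y541S library 1, Y541S library 2, WT library 1, WT library 2 or WT library 3 (adjusted p = 0.161, 0.141, 0.0735, 0.0771 and 0.101), and the ratio was −4.42 without Y541S library 3.

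Other large rises were in genes of varied function. Penk, the precursor of enkephalin peptides (chromosome 4, 4133531 to 4138819), had 192, 546 and 53.9 CPM in Y541S and 0.0817, 0.48 and 2.17 CPM in WT (8.11 ± 1.57, adjusted p = 0.00537). Rhox5, an X-linked homeobox gene, had 148, 159 and 3.86 CPM in Y541S and 0.0545, 0.27 and 0.562 CPM in WT (8.39 ± 1.64, adjusted p = 0.00567). Emb, embigin, a chaperone of lactate transporters, had 242, 216 and 26.5 CPM in Y541S and 2.51, 3.63 and 3.20 CPM in WT (5.69 ± 0.82, adjusted p = 0.00147). Agr2, a disulfide isomerase of secretory cells, had 15.2, 12.8 and 3.36 CPM in Y541S and 0.218, 0.12 and 0.464 CPM in WT (5.23 ± 1.0, adjusted p = 0.00519). In these 4 genes the groups did not overlap and library 3 was the lowest of Y541S. Their calls held in all 6 fits that left out 1 library (adjusted p up to 0.029). Under vehicle the ratios of Penk, Rhox5, Emb and Agr2 were 7.48, 5.67, 4.45 and 3.30, and they were not tested by themselves. Their Y541S vehicle levels varied widely, at 556 ± 828, 48.3 ± 69.7, 65.5 ± 58.6 and 13.4 ± 14.9 CPM (mean ± SD, n = 3). Slc2a3, a glucose transporter, had 482, 51.5 and 14.9 CPM in Y541S and 0.572, 1.53 and 7.89 CPM in WT (5.75 ± 1.38, adjusted p = 0.0137). The call ended without Y541S library 1, WT library 1 or WT library 2 (adjusted p = 0.0873, 0.0509 and 0.0599), and the ratio was 3.27 without Y541S library 1. A further pair was chosen after its values were seen, because of its high levels. Gpx3, a secreted glutathione peroxidase, had 17643, 10988 and 2434 CPM in Y541S and 703, 639.6 and 2289 CPM in WT (3.08 ± 0.58, adjusted p = 0.00487). Krt15, a keratin of basal and progenitor cells of stratified epithelium, had 1528, 866 and 933 CPM in Y541S and 8.86, 164 and 21.2 CPM in WT (4.10 ± 0.96, adjusted p = 0.0121), with a ratio of 6.18 without WT library 2. Both held in all 6 fits that left out 1 library (adjusted p up to 0.0421). Under vehicle the Gpx3 means were 36807 CPM in Y541S and 81232 CPM in WT, a ratio of −1.12. The vehicle ratio of Krt15 was 7.55, with 961 ± 1016 CPM in Y541S and 5.23 ± 2.01 CPM in WT (mean ± SD, n = 3).

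The labelled cell type was checked against marker lists. No mature luminal marker was at 0, but the summed CPM of the 11 markers was 943 to 1356 in Y541S ML and 2505 to 3662 in WT ML, without overlap. The Y541S sums overlapped the 384 to 1010.1 of Y541S LP, the 878 to 2006 of WT LP and the 584.5 to 1919 of D542G ML. Under vehicle the sums were also lower in Y541S ML, at 1187 to 2595 against 4235 to 4974 in WT ML. Prlr (718 to 1112 CPM) and Cited1 (811 to 1063 CPM) held much of the WT giredestrant sums. Cited1, a luminal coactivator, had 72.2, 142 and 261 CPM in Y541S and 811, 833 and 1063 CPM in WT (−2.53 ± 0.83, adjusted p = 0.0494), and Spdef, a luminal transcription factor, had 13.5, 9.40 and 13.2 CPM in Y541S and 28.2, 18.7 and 43.6 CPM in WT (−1.35 ± 0.37, adjusted p = 0.0247). With Prlr these made 3 calls of 11, all lower, and the median log2 ratio of the list was −1.02. The Cited1 call ended without Y541S library 1, Y541S library 2, WT library 1, WT library 2 or WT library 3 (adjusted p = 0.174, 0.128, 0.0832, 0.0909 and 0.0915), and the Spdef call without Y541S library 1, Y541S library 2 or WT library 3 (adjusted p = 0.0638, 0.0885 and 0.0966). None of the 3 was called without Y541S library 1 or without WT library 3. Without Y541S library 3, 4 markers were lower and 2 were higher, and without WT library 3 Pgr was higher and none was lower. Luminal progenitor markers summed to 1759.9 to 3142 CPM in Y541S and 1614 to 4204 CPM in WT, with 1 of 10 called higher (Lbp) and 1 lower (Ltf), and Tspan8 among the genes listed at 0.

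Some markers of other cell types also differed between genotypes. Basal markers summed to 948, 1164 and 581 CPM in Y541S and 318, 612 and 383 CPM in WT, against 34068 to 39739 CPM in Y541S Basal libraries. Of 16 tested, 4 were higher, 7 without Y541S library 3 and 2 without Y541S library 1 or WT library 1. Myh11, a smooth muscle myosin, had 22.0, 40.0 and 10.4 CPM in Y541S and 2.10, 1.89 and 2.08 CPM in WT (3.56 ± 0.82, adjusted p = 0.0114), and Procr had 9.30, 8.35 and 5.71 CPM in Y541S and 1.80, 3.48 and 2.37 CPM in WT (1.60 ± 0.35, adjusted p = 0.00914), both called whichever library was left out (adjusted p up to 0.0472). Krt14, the main keratin of these cells, had 101, 199 and 74.8 CPM in Y541S and 19.1, 65.2 and 25.4 CPM in WT and did not pass (adjusted p = 0.0621), except without Y541S library 3 (adjusted p = 0.0468) or WT library 2 (adjusted p = 0.043). Fibroblast markers summed to 283, 349 and 283 CPM in Y541S and 63.5, 62.8 and 112 CPM in WT, and 5 of 11 were called higher, all collagen or matrix genes. Col1a1 had 39.5, 66.6 and 32.1 CPM in Y541S and 7.71, 4.23 and 10.9 CPM in WT (2.57 ± 0.78, adjusted p = 0.0372), and none of the 5 was called without Y541S library 1, Y541S library 2, WT library 1 or WT library 2 (Col1a1 adjusted p = 0.0778, 0.103, 0.0978 and 0.129). Endothelial markers summed to 547, 479 and 215 CPM in Y541S and 208, 267 and 284 CPM in WT, with 4 of 13 called higher and 1 left without Y541S library 1, Y541S library 2 or WT library 1. Kdr, a receptor for vascular endothelial growth factor, had 27.3, 20.0 and 15.6 CPM in Y541S and 5.31, 7.26 and 6.42 CPM in WT (1.72 ± 0.36, adjusted p = 0.00761, at most 0.0387 on leaving out any library). Immune cell markers summed to 31.2, 56.0 and 98.0 CPM in Y541S and 28.2, 19.8 and 31.4 CPM in WT, with 0 of 11 called in edgeR, 2 at an unadjusted p under 0.05, 1 called higher in DESeq2 and Itgam among the genes listed at 0. Pericyte markers summed to 89.9, 91.0 and 75.6 CPM in Y541S and 32.9, 67.8 and 41.5 CPM in WT, with 1 of 7 called higher (Cspg4), a call that ended without Y541S library 1, Y541S library 2, WT library 1, WT library 2 or WT library 3 (adjusted p = 0.196, 0.0721, 0.149, 0.0848 and 0.0685). Adipocyte markers gave 0 of 5 calls in edgeR, where 1 had an unadjusted p under 0.05, and 0 in DESeq2. The part of other cells in the differences between genotypes was not tested.

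**Figure D4:**
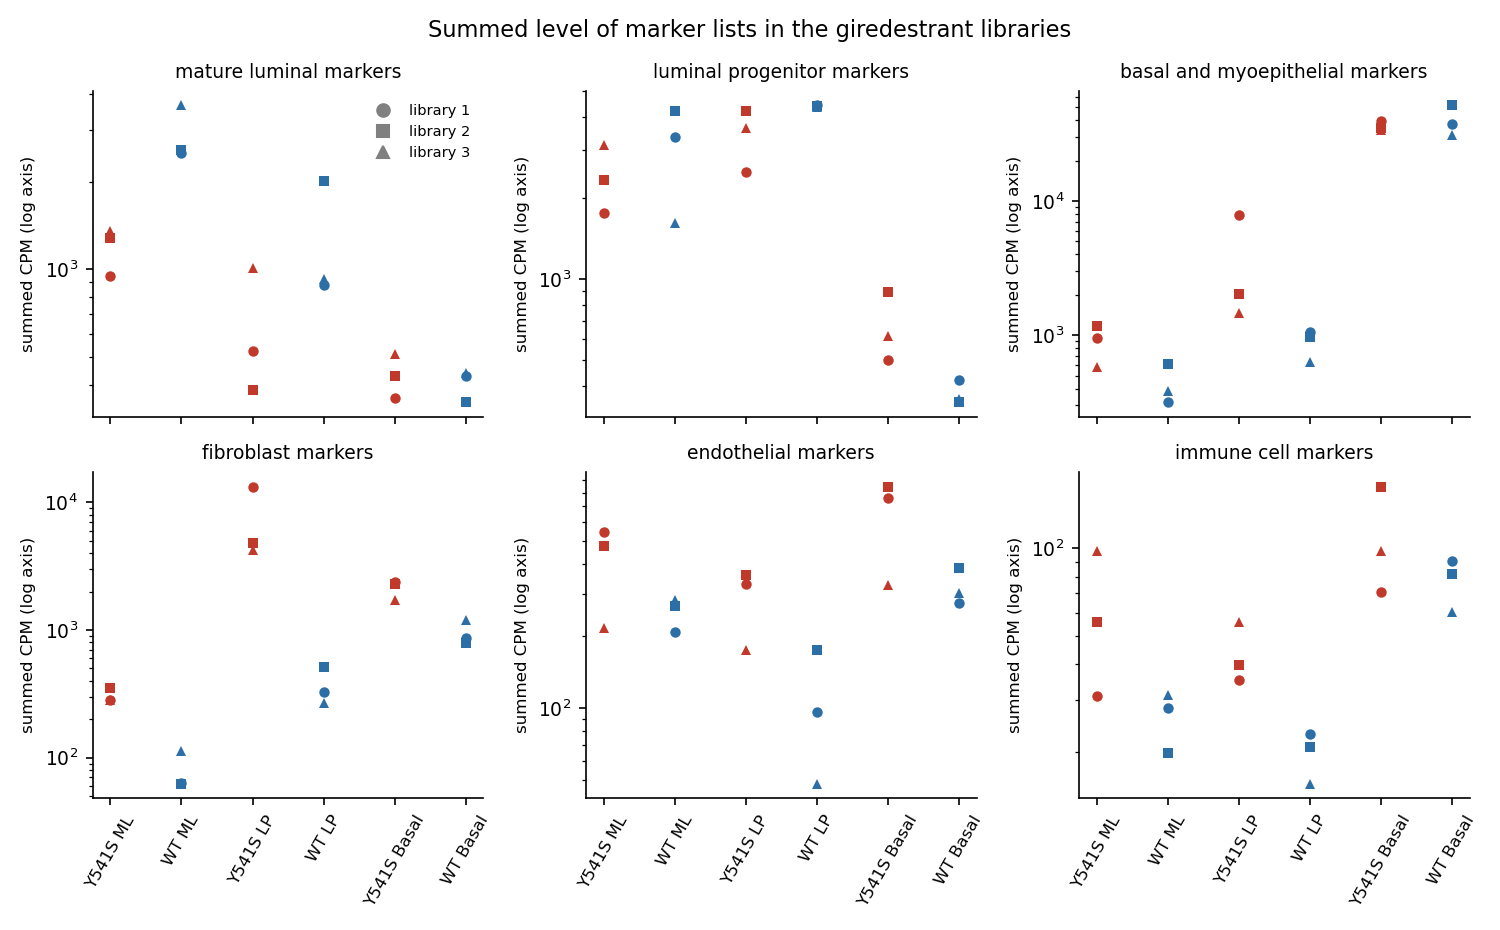
Summed CPM (y axis, log scale) of 6 marker lists in the giredestrant libraries of ML, LP and Basal, with Y541S in red and WT in blue and marker shapes for libraries 1, 2 and 3. The mature luminal sum is lower in all 3 Y541S ML libraries (943 to 1356) than in all 3 WT ML libraries (2505 to 3662), the fibroblast sum is higher (283 to 349 against 62.8 to 112), and basal markers stay far below Basal libraries in both.

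Whether the genotype difference under giredestrant was the same as under vehicle was tested as the difference of the 2 differences. It was called for 994 genes (5.79%), with the giredestrant difference above the vehicle difference in 684 (3.98%) and below it in 310 (1.80%). With library totals as the only scaling the balance turned, with 360 above and 1781 below and a median log2 difference over all genes of −0.39. Of the genes called between genotypes under the drug, 390 of the higher and 170 of the lower ones were also called here in the same direction. Both tests use the same 6 giredestrant libraries, so this overlap is not independent evidence. The number of calls was 518 to 1145 when any 1 of the 12 libraries was left out. Among the named genes 38 were called, and 20 of them in every such fit. The sign of the Greb1 ratio differed between treatments. The log2 ratio was 3.42 ± 0.57 under giredestrant and −1.67 under vehicle, and the difference was 5.09 ± 0.76 (adjusted p = 0.00218). Epgn overlapped between genotypes under vehicle, at 20.2, 49.8 and 12.1 CPM in Y541S and 23.6, 36.5 and 31.5 CPM in WT, and its difference was 4.80 ± 0.71 (adjusted p = 0.00218). Krt6a had vehicle means of 156.5 CPM (SD 160) in Y541S and 176 CPM (SD 34.0) in WT. Its giredestrant means were 101.5 CPM in Y541S and 3.52 CPM in WT, so the Y541S mean was not above that under vehicle. The vehicle ratio was −0.14 and the difference 4.99 ± 0.97 (adjusted p = 0.00923). Hspa5 had vehicle means of 1941 CPM in Y541S and 2085 CPM in WT, against giredestrant means of 2331 and 846 CPM. Its vehicle ratio was −0.08 and its difference 1.53 ± 0.25 (adjusted p = 0.00363). Nrxn3 had a giredestrant ratio of −6.25 ± 0.99 against a vehicle ratio of 2.38, with a difference of −8.63 ± 1.28 (adjusted p = 0.00218). These 5 were called in every fit that left out 1 of the 12 libraries.

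The casein genes were not called in that test. Csn2 had a vehicle ratio of 8.60 and a difference of 2.58 ± 3.91 (adjusted p = 0.74), and Csn1s2a a vehicle ratio of 3.38 and a difference of 8.69 ± 2.74 (adjusted p = 0.0739). Vehicle levels of Csn1s2a were 47.5, 42.0 and 12.3 CPM in Y541S and 3.11, 1.25 and 5.53 CPM in WT. Prlr, with a difference of −0.39 ± 0.52 (adjusted p = 0.701), and Cited1, with −1.10 ± 1.11 (adjusted p = 0.598), were not called either. Estrogen receptor targets were called in 5 of 21 cases, cholesterol synthesis genes in 7 of 18 and milk fat genes in 5 of 15. In all of these the giredestrant difference was above the vehicle difference. Also called in that direction were 6 of 13 endothelial markers and 3 of 16 basal markers. The part of endothelial and basal cells in these values was not tested. With library totals as the only scaling 4 estrogen receptor targets, 2 cholesterol synthesis genes, 3 milk fat genes, 5 endothelial markers and 3 basal markers were called so. For the 2 class I antigen genes H2-D1 and H2-K1 the test was called although they did not differ beyond the threshold under the drug: H2-D1 had 1950.5, 1865 and 2069 CPM in Y541S and 1754, 1689 and 2079.7 CPM in WT under giredestrant, and 1843, 1409 and 2528 CPM in Y541S and 4664, 4525 and 4636 CPM in WT under vehicle (difference 1.31 ± 0.25, adjusted p = 0.00825).

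**Figure D5:**
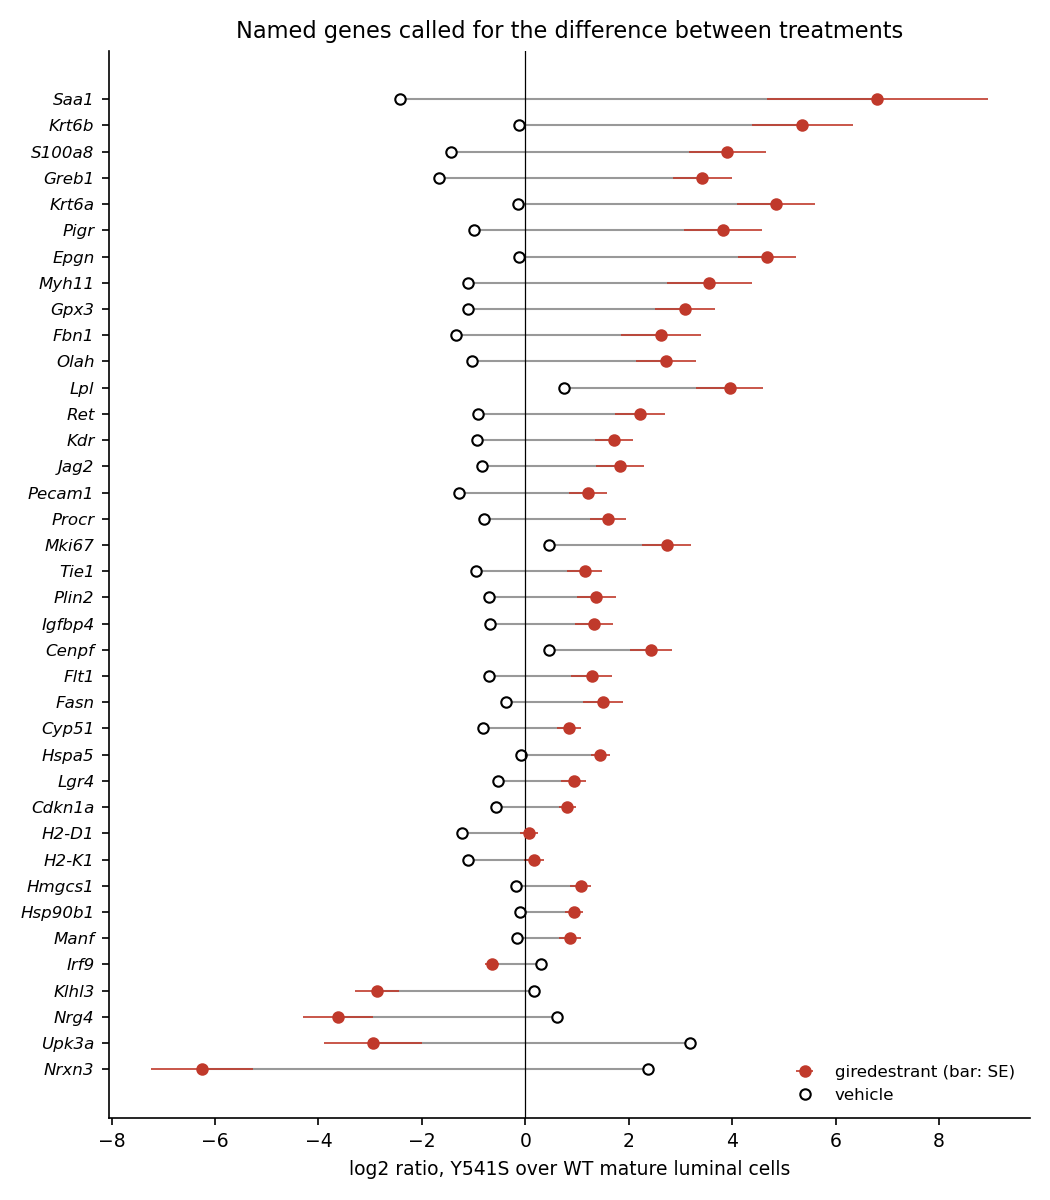
Log2 ratio of Y541S over WT in ML (x axis) for the 38 named genes called for the difference between treatments (rows, ordered by that difference), with filled red points for giredestrant and open points for vehicle. Bars are the SE of the giredestrant ratio, and most open points lie close to or left of 0 while filled points lie right of it, except Nrxn3, Upk3a, Nrg4, Klhl3 and Irf9, where the filled point is the lower.

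Set against D542G ML under the same drug, Y541S ML differed in 1595 genes (9.28%), 849 higher (4.94%) and 746 lower (4.34%). This count rested on few libraries, with 162 calls without Y541S library 1, 310 without D542G library 2, 394 without Y541S library 2 and 788 without D542G library 3, and with 7 calls when the 2 groups were fitted alone. None of the 33 named genes called here held in all 6 fits that left out 1 library. Csn2 had 11335, 3343 and 27.8 CPM in Y541S and 2.32, 44.2 and 832 CPM in D542G, which overlapped and did not pass (4.06 ± 1.81, adjusted p = 0.164). Epgn had 40.9, 32.6 and 18.8 CPM in Y541S and 20.3, 8.07 and 14.9 CPM in D542G (1.08 ± 0.47, adjusted p = 0.155), and Krt6a had 136, 112 and 56.3 CPM in Y541S and 191, 61.5 and 88.7 CPM in D542G (−0.18 ± 0.63, adjusted p = 0.891). The comparisons with WT and with D542G share the Y541S libraries.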

How the data were processed

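Gene counts were deposited by the authors as 1 table per library, and per the file headers each table holds a raw count per Ensembl gene. The submitters' processing notes name the build GRCm38. No label or header names the aligner, the counter, its strand setting or the annotation. Each total is the depth of its library, 21.4 M to 59.0 M counts (M, 1e6) in the 6 libraries compared, so the spread between libraries and not counting error limits precision.

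The comparison was fitted by the quasi-likelihood F test of edgeR 4.0.16 under R 4.3.3 on all 18 ML libraries of 6 groups, with TMM scaling and genes kept by filterByExpr, and p-values were adjusted by Benjamini-Hochberg over 17181 genes. Each SE was taken as the size of the log2 ratio over the root of its F statistic. CPM used TMM factors over 51 libraries. The alternatives were RLE factors, library totals only, DESeq2 1.42.0, other filters, other sets of libraries, a replicate block and leaving out each library. The procedure was tested on simulated data.

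The members and lists were chosen with earlier results of these data known. Named genes were Esr1, the 12 largest rises and 12 largest falls among separated, called genes of at least 10 CPM, up to 6 called members per list, and up to 3 members by level where a list had fewer than 2 calls, with some left out for length and some not reported here. Gpx3, Krt15, Pgr, Stat5a, Elf5, Tnfsf11 and Krt14 were chosen after their values were seen. The deposited RPKM values were not used.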

Additional observations from a re-analysis of the deposited data

Results flagged for a closer look

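The ratio of Y541S over WT differed between giredestrant and vehicle in 994 genes by edgeR's quasi-likelihood test of the difference itself. Of the 38 named genes among them, 20 were called in all 12 fits that left out 1 of the libraries. The log2 difference, giredestrant minus vehicle, was positive for 16 of these: Greb1 (5.09), Ret (3.13), Procr (2.40), Cdkn1a (1.37), Cyp51 (1.66), H2-D1 (1.31), H2-K1 (1.27), Epgn (4.80), Krt6b (5.48), Krt6a (4.99), S100a8 (5.34), Pigr (4.81), Hspa5 (1.53), Kdr (2.66), Pecam1 (2.50) and Gpx3 (4.20). It was negative for Nrxn3 (−8.63), Nrg4 (−4.25), Klhl3 (−3.03) and Irf9 (−0.95).

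The other 18 lost the call when some single library was left out. The call of Lgr4 (1.47) ended without Y541S giredestrant library 1 (adjusted p = 0.0521). Olah (3.75) was not called without Y541S giredestrant library 1 or WT vehicle library 3 (adjusted p up to 0.0561). Hmgcs1 (1.24) was not called without Y541S giredestrant library 2, WT giredestrant library 1 or WT vehicle library 1 (adjusted p up to 0.059). Tie1 (2.10) was not called without Y541S giredestrant library 1, WT giredestrant library 1 or WT vehicle library 2 (adjusted p up to 0.057). Myh11 (4.66) was not called without Y541S giredestrant library 2, Y541S vehicle library 1, Y541S vehicle library 2, WT giredestrant library 1, WT giredestrant library 2 or WT vehicle library 2 (adjusted p up to 0.0616). Saa1 (9.22) was not called without Y541S giredestrant library 1, WT giredestrant library 1, WT giredestrant library 2 or WT vehicle library 1 (adjusted p up to 0.0703). Hsp90b1 (1.05) was not called without Y541S giredestrant library 1, Y541S giredestrant library 2, Y541S vehicle library 1, WT giredestrant library 1 or WT giredestrant library 2 (adjusted p up to 0.0664). A further 11 genes lost the call in 8 to 11 of the 12 fits, always including those without Y541S giredestrant library 1 and Y541S vehicle library 1: Upk3a (−6.13), Igfbp4 (2.01), Lpl (3.20), Fasn (1.88), Plin2 (2.08), Mki67 (2.28), Cenpf (1.98), Jag2 (2.66), Manf (1.03), Fbn1 (3.97) and Flt1 (1.98). Their highest adjusted p was between 0.0712 (Jag2) and 0.133 (Fasn). The fitted value of Saa1 depends on the prior count, since all WT giredestrant libraries were at 0. Manf is overlapped by other genes over 92.3% of its span.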

How the results depend on the processing

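The count of 2599 genes called between Y541S and WT under giredestrant was 2016 to 3654 with RLE factors, library totals only, DESeq2, both other filters or all 51 libraries. It was 605 with these 6 libraries fitted alone, where fewer libraries estimate the spread, 912 to 2783 on leaving out 1 library, and 125 without Y541S libraries 1 and 2. Library totals alone took the share of calls that were higher in Y541S to 46.5%, against 55.4%. For the difference from vehicle the 994 calls became 2141 with library totals only (360 positive, 1781 negative, median over all genes −0.39), 1903 in DESeq2, 518 to 1145 on leaving out 1 library and 167 without Y541S libraries 1 and 2. For Y541S against D542G the 1595 calls became 2661 in DESeq2, 7 with the 2 groups alone, 162 to 2063 on leaving out 1 library, and 0 without Y541S libraries 1 and 2. Of the 111 named genes called, 45 were called in all 6 fits that left out 1 library and 6 without Y541S libraries 1 and 2, where Hsd11b2 (−0.95), Fkbp5 (−0.11) and Thrsp (−0.056) changed sign. With these 6 libraries fitted alone, 52 of the 111 were still called. Among those lost were Ret, Cenpe, Socs3, Irf9, Gpx3 and Krt15, which held in all 6 fits that left out 1 library. That fit also leaves out the vehicle groups, whose median SD of log2 CPM between libraries was 0.172 to 0.208. It was 0.243 to 0.265 in the giredestrant groups. The causes were not tested.

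Libraries of Y541S and WT with the same replicate number deviated together with correlations of −0.038, 0.105 and −0.064. Between all pairs of ML groups such correlations ran from −0.182 to 0.214. With 3 libraries per group these values do not settle whether the numbers pair the samples. With the replicate number as a block 2368 genes were called, 850 for the difference from vehicle and 1345 against D542G, and 100 of the 111 named genes were still called.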
